A study of Mus musculus and Homo sapiens with 20 samples.

Results

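The nuclear genes for the subunits of oxidative phosphorylation were followed in 3 cell lines after inhibition of the chaperone HSP90. Members were the rows of the 3 count tables whose symbol began with NDUFA, NDUFB, NDUFC, NDUFS, NDUFV, UQCR, ATP5 or COX4 to COX8, or was SDHA, SDHB, SDHC, SDHD or CYC1. Assembly factors named NDUFAF and pseudogenes were left out, and a mean of at least 1 CPM (counts scaled to the size of the library) was required. This gave 78 members of 43626 rows in MEF, 78 of 43626 in HPC-7 and 82 of 63568 in K562, and all of them were tested. In each mouse table complex I had 37 members, complex II 4, complex III 9, complex IV 11 and complex V 17, and in K562 complex I had 41 with the other counts the same.

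RNA-seq was deposited for MEF (mouse embryonic fibroblasts), HPC-7 (a mouse blood progenitor line) and K562 (a human leukaemia line), with 3 HSP90i and 3 Control libraries of each. The HSP90i cells had received NVP-AUY922, an inhibitor of the HSP90 ATPase, for 16 h, at 200 nM in MEF, 50 nM in HPC-7 and 300 nM in K562, and the Control cells were the columns headed DMSO, the solvent. The labels name no genotype, sex or passage, and do not say whether replicates came from separate cultures. The p-values therefore cover the spread between libraries alone, which may be technical. Line, dose and, for K562, species differ together and cannot be told apart.

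Oxidative phosphorylation passes electrons from NADH (complex I) and succinate (complex II) through coenzyme Q to complex III, through cytochrome c to complex IV, and uses the proton gradient so built to make ATP in complex V. Most subunits are encoded in the nucleus and imported, and the rest are made inside the mitochondrion from its own DNA. The transcription factors NRF1, GABPA (of the ETS family) and YY1 are known for binding the promoters of many of the nuclear genes, with the PGC-1 family, to which PPRC1 and PPARGC1B belong, as coactivators.

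The promoters of 5 members, 1 from each complex, are shown because they hold letters that those factors are known to bind. 4 of the genes fell in HPC-7 and 1, Ndufa6, rose in both mouse lines. Sequences are from RefSeq (GRCm38.p6), 250 bases up to the transcription start on the gene's strand, with motifs in capitals: the NRF1 motif GCATGCG, the ETS motif CCGGAAG and the YY1 motif AAGATGG, each searched on both strands. The NRF1 motif is nearly a palindrome, so its matches on the 2 strands can overlap and are then capitalised as one run. Atp5j has 2 promoters in this source, and the one not shown (chr16:84835626-84835875, minus strand) held 0 matches.
Ndufa6 (complex I, chr15:82354292-82354541, minus strand): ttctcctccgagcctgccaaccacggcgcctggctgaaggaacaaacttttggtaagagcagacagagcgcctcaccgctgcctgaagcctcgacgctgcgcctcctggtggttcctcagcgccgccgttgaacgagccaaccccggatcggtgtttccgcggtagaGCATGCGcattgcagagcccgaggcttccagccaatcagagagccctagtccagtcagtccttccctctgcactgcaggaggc
Sdhb (complex II, chr4:140961021-140961270, plus strand): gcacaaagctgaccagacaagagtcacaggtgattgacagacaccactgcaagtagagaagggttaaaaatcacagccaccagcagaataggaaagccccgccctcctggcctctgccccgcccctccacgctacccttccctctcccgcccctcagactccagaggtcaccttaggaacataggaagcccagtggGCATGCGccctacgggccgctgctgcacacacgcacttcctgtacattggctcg
Uqcr11 (complex III, chr10:80406822-80407071, minus strand): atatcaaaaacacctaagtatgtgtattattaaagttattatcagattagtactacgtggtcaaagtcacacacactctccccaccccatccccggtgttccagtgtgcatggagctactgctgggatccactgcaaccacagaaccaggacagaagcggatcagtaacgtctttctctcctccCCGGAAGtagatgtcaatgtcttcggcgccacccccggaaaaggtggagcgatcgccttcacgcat
Cox6a1 (complex IV, chr5:115348959-115349208, minus strand): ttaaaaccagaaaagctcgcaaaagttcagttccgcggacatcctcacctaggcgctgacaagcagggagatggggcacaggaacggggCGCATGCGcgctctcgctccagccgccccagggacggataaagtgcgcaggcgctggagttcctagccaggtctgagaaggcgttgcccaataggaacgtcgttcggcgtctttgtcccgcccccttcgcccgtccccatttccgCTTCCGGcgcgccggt
Atp5j (complex V, chr16:84834977-84835226, minus strand): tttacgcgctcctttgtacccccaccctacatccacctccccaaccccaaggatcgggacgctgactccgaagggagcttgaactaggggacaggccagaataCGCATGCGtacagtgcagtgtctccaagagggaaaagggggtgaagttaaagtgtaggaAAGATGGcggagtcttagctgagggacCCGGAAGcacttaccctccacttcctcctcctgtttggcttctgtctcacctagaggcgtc
Over the 300-base windows from 250 bases before the start to 50 after it, 66 of the 78 mouse members matched the table, with 72 promoters. The NRF1 motif was in 15.3% of these promoters and in 3.58% of all 32851, the ETS motif in 22.2% and 8.86%, and the YY1 motif in 18.1% and 6.34%. Members with and without a motif had nearly the same median response in HPC-7. The median log2 fold change, HSP90i over Control, was -0.69 with the NRF1 motif (11 genes) and -0.65 without it (55 genes), -0.66 with and without the ETS motif, and -0.67 with and -0.65 without the YY1 motif. In MEF the medians were -0.01 with and 0.09 without the NRF1 motif. They were 0.04 with and 0.09 without the ETS motif, and 0.10 with and 0.05 without the YY1 motif. None of these differences was tested. The matches are a description of these letters and no evidence of binding.

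Library totals were 10542305 to 22872539 counts in MEF, 10131491 to 16859394 in HPC-7 and 7936066 to 10950573 in K562. Hspa1a, Hspa1b, Hspa8, Hsph1 and Dnajb1, heat shock genes known to rise when HSP90 is inhibited, were called higher in HSP90i cells of every line (5 of 5 each; in MEF, Dnajb1 was not called without Control 2, HSP90i 1 or HSP90i 2, with adjusted p 0.0535 to 0.0675). The labelled cell types showed their markers, with 6 of 6 fibroblast markers at 1 CPM or more in MEF, 7 of 7 blood progenitor markers in HPC-7 and 6 of 6 erythroleukaemia markers in K562. The K562 library Control 1 stood apart, with the highest value of the 6 libraries for 66 of the 82 members, so K562 results are given with and without it. Bulk counts do not tell fewer cells of a type from less RNA per cell.

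In HPC-7 the subunit genes fell together. By edgeR's quasi-likelihood test with an adjusted p under 0.05 over all 11703 genes tested, 70 of the 78 members were lower in HSP90i cells and 5 higher, where 36.6% of all tested genes were called lower and 36.5% higher (73.1% in either direction). The median log2 fold change of the members was -0.66, against -0.00 over all genes. All 3 HSP90i libraries lay below all 3 Control libraries for 69 members and above them for 5, beside 38.9% and 38.5% of all genes. The members made up 0.725%, 0.727% and 0.664% of the counts of the HSP90i libraries, against 1.08%, 1.09% and 1.15% of those of the Control libraries. Each complex showed this, with medians of -0.60 in complex I, -0.58 in complex II, -0.95 in complex III, -0.96 in complex IV and -0.69 in complex V. Over 15 other settings, 66 of the 70 lower calls and 3 of the 5 higher calls were never lost.

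**Figure D1:**
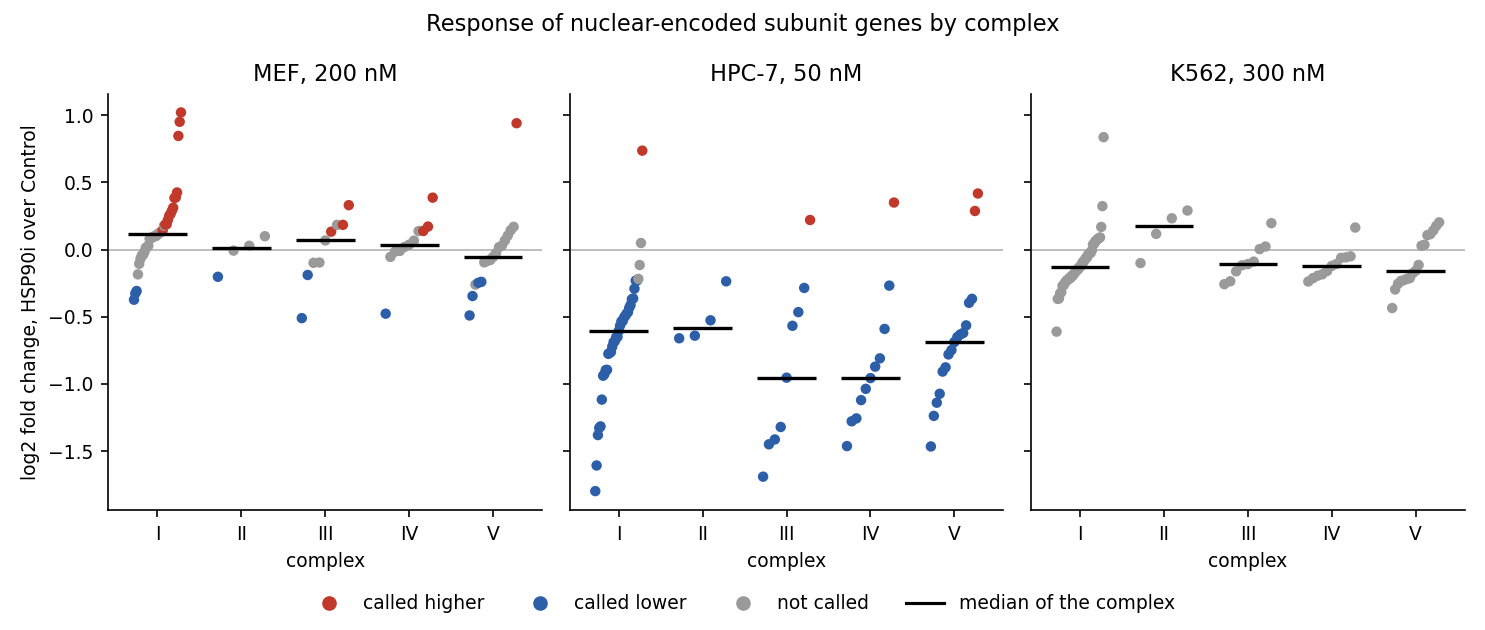
Log2 fold change, HSP90i over Control, of each member (points, sorted within its complex) by complex in MEF, HPC-7 and K562, with black bars at the median of the complex. Most points of HPC-7 lie below 0 and are called lower (70 of 78), those of MEF lie around 0 with 21 called higher and 11 lower, and no point of K562 is called.

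Complex I had 33 lower members of 37 in HPC-7 and 1 higher. The largest fall of all members was that of Ndufa12, an accessory subunit known to be added late in assembly. Ndufa12 had 11.7, 17.1 and 9.50 CPM in HSP90i libraries, against 44.7, 44.0 and 43.7 CPM in Control libraries, and the log2 fold change was -1.80 ± 0.17 (SE; adjusted p = 6.6e-06). By this fold change its HSP90i level was 28.8% of the Control level, and the groups were far apart. Ndufa1, an accessory subunit of the membrane arm, had the next largest fall in complex I. Ndufa1 had 13.1, 15.3 and 10.0 CPM in HSP90i libraries, against 41.7, 34.9 and 40.1 CPM in Control libraries (log2 fold change -1.61 ± 0.14, adjusted p = 4.8e-06). Ndufa4, first described in complex I and now placed in complex IV, was also well separated. Ndufa4 had 56.6, 61.0 and 50.2 CPM in HSP90i libraries, against 144, 145 and 148 CPM in Control libraries (log2 fold change -1.38 ± 0.08, adjusted p = 6.9e-07).

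The core subunits Ndufs1, Ndufs3, Ndufs7, Ndufs8, Ndufv1 and Ndufv2, which carry flavin or iron-sulphur centres, were each called lower in HPC-7, with log2 fold changes between -0.76 and -0.23 and a median of -0.48. They were picked out after the values were seen. Of these, Ndufs3 was not called without Control 1 (adjusted p = 0.0699), Control 3 (0.0807) or HSP90i 3 (0.0617), and Ndufs8 without Control 1, 2 or 3 or HSP90i 3 (0.0538 to 0.121). Ndufa6, an accessory subunit of the LYR family whose promoter is shown above, moved against the rest of the complex. Ndufa6 had 135, 107 and 113 CPM in HSP90i libraries, against 74.2, 65.4 and 73.2 CPM in Control libraries (log2 fold change 0.74 ± 0.10, adjusted p = 8.1e-05), so every HSP90i library was above every Control library. Ndufa7, Ndufv3 and Ndufb11 were not called, at -0.22, -0.11 and 0.05, and Ndufa7 was called lower without Control 1 (adjusted p = 0.00870).

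Complex II, which is also the succinate dehydrogenase of the TCA cycle, had all 4 members lower in HPC-7. Sdha, the flavoprotein that oxidises succinate, had 222, 243 and 228 CPM in HSP90i libraries, against 356, 363 and 376 CPM in Control libraries (log2 fold change -0.66 ± 0.07, adjusted p = 1.2e-05). Sdhb, the iron-sulphur subunit, had 62.4, 61.6 and 55.2 CPM in HSP90i libraries, against 89.9, 94.5 and 95.2 CPM in Control libraries (log2 fold change -0.64 ± 0.08, adjusted p = 3.6e-05). The HSP90i and Control values did not overlap for either gene, nor for Sdhc (-0.53) and Sdhd (-0.24), the membrane anchors.

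Complex III had 8 of 9 members lower in HPC-7 and 1 higher. Uqcrq, a small subunit beside cytochrome b, had 16.8, 18.4 and 15.3 CPM in HSP90i libraries, against 50.2, 53.8 and 59.2 CPM in Control libraries (log2 fold change -1.69 ± 0.10, adjusted p = 7.1e-07). Cyc1, cytochrome c1, which hands electrons to cytochrome c, had 47.6, 55.0 and 36.0 CPM in HSP90i libraries, against 118, 125 and 126 CPM in Control libraries (log2 fold change -1.41 ± 0.13, adjusted p = 6.5e-06). For both genes the highest HSP90i library was below the lowest Control library, and Uqcr10 (-1.45) and Uqcr11 (-1.32) fell by similar amounts. The core proteins Uqcrc1 and Uqcrc2 and the Rieske protein Uqcrfs1 had smaller falls, of -0.57, -0.29 and -0.47. Uqcrh, the hinge protein bound to cytochrome c1, had 229, 202 and 218 CPM in HSP90i libraries, against 182, 179.8 and 195 CPM in Control libraries (log2 fold change 0.22 ± 0.07, adjusted p = 0.0197). That call was lost without Control 1 (adjusted p = 0.0778), Control 2 (0.0967) or HSP90i 1 (0.0538).

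Complex IV had 10 of 11 members lower in HPC-7. Cox6a1, the common form of subunit 6a, had 50.8, 64.4 and 42.1 CPM in HSP90i libraries, against 137, 147 and 149.6 CPM in Control libraries (log2 fold change -1.46 ± 0.13, adjusted p = 5.6e-06). Cox5a had 49.2, 56.4 and 41.8 CPM in HSP90i libraries, against 119, 114 and 119 CPM in Control libraries (log2 fold change -1.26 ± 0.10, adjusted p = 3.3e-06), and Cox7b had 63.7, 64.1 and 63.6 CPM in HSP90i libraries, against 159, 152 and 153 CPM in Control libraries (-1.28 ± 0.07, adjusted p = 3.4e-07). The 3 HSP90i libraries were well below the Controls for all 3 of these genes. Cox4i1, the largest nuclear-encoded subunit of the enzyme, differed least, with 387, 335 and 325 CPM in HSP90i libraries, against 422, 399 and 440.3 CPM in Control libraries (-0.27 ± 0.08, adjusted p = 0.014), and was not called without Control 3 (adjusted p = 0.0549) or HSP90i 3 (0.0537). The member that rose was Cox7a2l, a relative of subunit 7a that joins complexes III and IV into supercomplexes. It had 252, 239 and 255 CPM in HSP90i libraries, against 181, 194 and 211 CPM in Control libraries (0.35 ± 0.08, adjusted p = 0.00184).

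Complex V, the ATP synthase, had 15 lower members of 17 and 2 higher in HPC-7. Atp5g1 and Atp5g3, which encode the same mature c subunit of the rotating ring, fell most. Atp5g1 had 40.4, 51.2 and 35.3 CPM in HSP90i libraries, against 111, 115 and 124 CPM in Control libraries (log2 fold change -1.46 ± 0.12, adjusted p = 3.8e-06), and Atp5g3 fell by 1.24 on the log2 scale, while Atp5g2, the other gene for that subunit, fell by 0.75. Atp5b, the catalytic beta subunit, had 592, 628 and 551 CPM in HSP90i libraries, against 1188, 1218 and 1319.9 CPM in Control libraries (log2 fold change -1.07 ± 0.08, adjusted p = 1.9e-06), and the alpha subunit Atp5a1 had a log2 fold change of -0.65 ± 0.07. The higher members, Atp5sl (0.42 ± 0.07, adjusted p = 0.000551) and Atp5s (0.29 ± 0.11, adjusted p = 0.0365), are named after the enzyme but are not counted among its core subunits, and Atp5sl is known as an assembly factor of complex I (DMAC2). Without the symbols that are no subunit, 70 of 76 members were lower and 3 higher. The call of Atp5s was lost in 5 of the 6 fits that left out a library, with adjusted p between 0.0541 and 0.128, and that of Atp5e in 4 (0.0530 to 0.0967). The count of higher members was 3 without Control 1 or without Control 2.

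**Figure D2:**
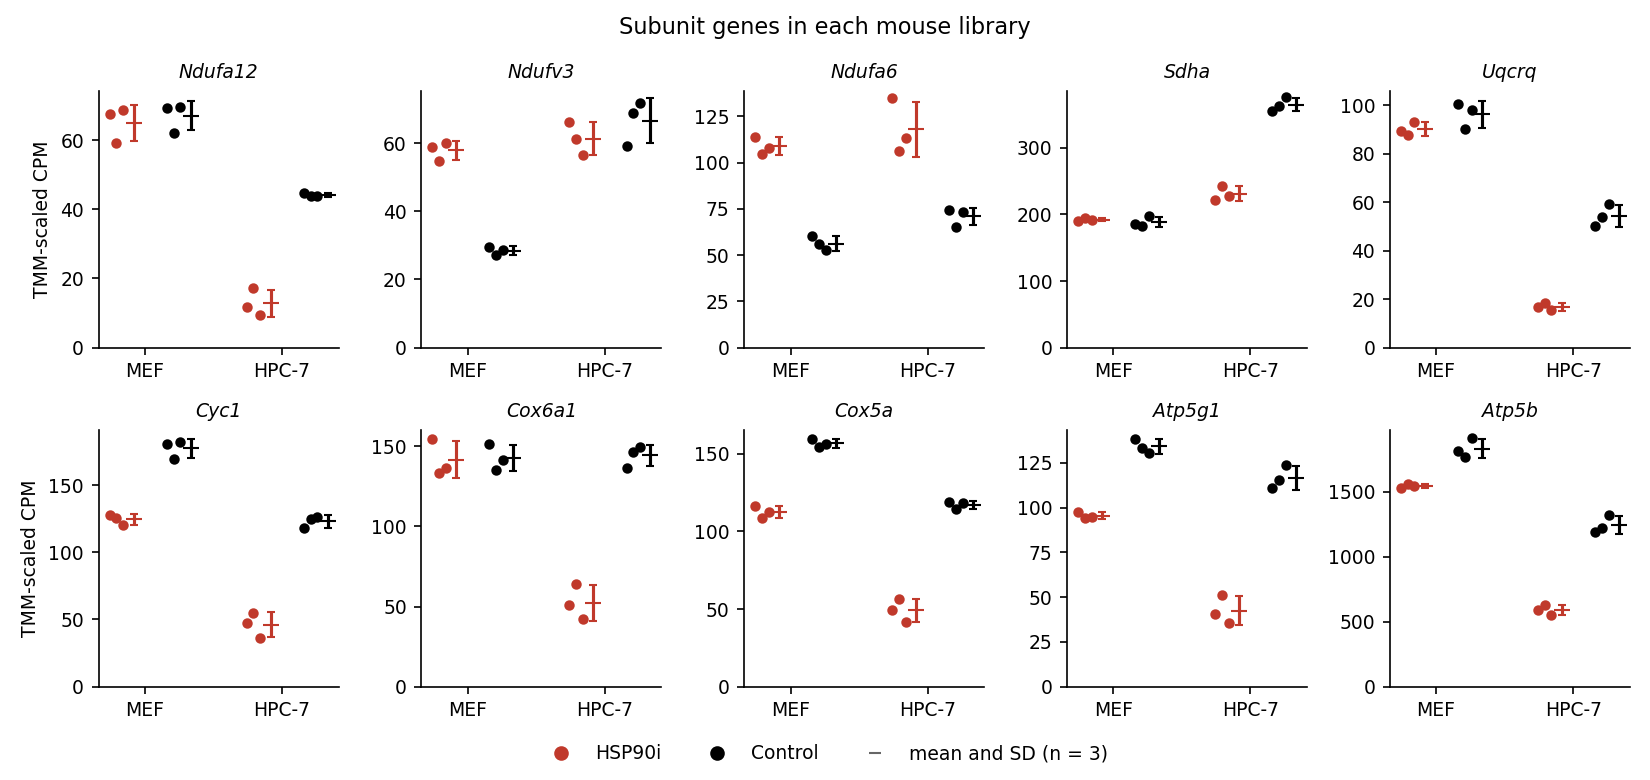
TMM-scaled CPM of 10 members in every MEF and HPC-7 library (points; HSP90i left of Control in each line), with the mean and SD (n = 3 each) beside them. In HPC-7 the HSP90i points of Ndufa12 (9.50 to 17.1 CPM) lie well below the Control points (43.7 to 44.7 CPM), while in MEF they overlap; Ndufv3 and Ndufa6 are higher in HSP90i cells of MEF.

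In MEF the same genes moved in both directions and by less. Of 78 members, 21 were called higher in HSP90i cells and 11 lower, while 35.1% of the 12340 tested genes were called higher and 38.2% lower (73.4% in either direction), so both shares of members, and the share called at all, were below those of all genes. The median log2 fold change of the members was 0.07, against -0.01 over all genes. Groups did not overlap for 26 members with HSP90i above Control and for 15 with HSP90i below it, beside 37% and 39.3% of all genes. The members made up 1.04%, 1.03% and 1.01% of the counts of the HSP90i libraries, against 1.02%, 0.971% and 1.05% of those of the Control libraries. Scaling mattered here: with upper quartile factors the median of all genes moved to 0.09, that of the members to 0.17, and 37 members were called higher and 8 lower (40.8% and 33% of all genes). The median of the members minus that of all genes was 0.08 in both, and 0.039 without Control 2 or with no filter on low counts.

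Of the 21 higher members in MEF, 14 were in complex I. Of the 37 members of that complex, 37.8% were higher and 8.11% lower, so its share of higher genes was near that of all genes (35.1%) and its share of lower genes below it (38.2%). The median was 0.11, and became 0.22 with upper quartile factors and 0.23 in the fit over 12 mouse libraries. Ndufv3, an accessory subunit at the NADH-oxidising tip, had the largest rise. Ndufv3 had 58.8, 54.7 and 60.2 CPM in HSP90i libraries, against 29.6, 27.2 and 28.6 CPM in Control libraries (log2 fold change 1.02 ± 0.06, adjusted p = 1.1e-06). Ndufa6 had 114, 105 and 108 CPM in HSP90i libraries, against 60.5, 55.8 and 52.6 CPM in Control libraries (log2 fold change 0.95 ± 0.06, adjusted p = 2.1e-06). For both genes the HSP90i libraries stood clear of the Controls, at 203% and 193% of the Control level by the fold change. The core subunits Ndufs3 (0.43) and Ndufv2 (0.39) rose by less, while Ndufs1 (0.03) and Ndufv1 (0.01) were not called. The lower members were Ndufb6 (-0.37 ± 0.08), Ndufa5 (-0.33) and Ndufb10 (-0.31). Ndufs6, a subunit near the same tip, was at 1.93, 1.95 and 1.96 CPM in HSP90i and 1.81, 2.37 and 1.33 CPM in Control cells of MEF, and it was not called; in HPC-7 it had 19.5, 19.1 and 15.2 CPM in HSP90i and 39.1, 38.8 and 39.1 CPM in Control cells. The tables were scaled separately, so these levels are set side by side with no test.

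In the other complexes of MEF the largest falls were in genes for cytochrome c1, a matrix-side subunit of complex IV and the ATP synthase, and Sdhd (-0.20) and Uqcrc1 (-0.19) were also called lower. Cyc1 had 128, 125 and 120.2 CPM in HSP90i libraries, against 181, 169.5 and 182 CPM in Control libraries (log2 fold change -0.51 ± 0.05, adjusted p = 1.9e-05). Cox5a, that matrix-side subunit, had 117, 109 and 112 CPM in HSP90i libraries, against 159.8, 154 and 156 CPM in Control libraries (-0.48 ± 0.05, adjusted p = 2.1e-05). Atp5g1 had 97.7, 94.5 and 94.6 CPM in HSP90i libraries, against 139, 134 and 131 CPM in Control libraries (-0.49 ± 0.05, adjusted p = 1.6e-05). All 3 genes had every HSP90i library below every Control library, in MEF as in HPC-7. Atp5g3 fell by 0.35 on the log2 scale (adjusted p = 0.000282), and Atp5b and Atp5a1 had -0.25 and -0.24. Complex V had 4 lower members and 1 higher, Atp5sl (0.94 ± 0.09), and its median of -0.05 became 0.05 with upper quartile factors and 0.06 in the fit over 12 mouse libraries. In complex III, Uqcrfs1 rose (0.33 ± 0.06, adjusted p = 0.00061), and in complex IV Cox7a2l did (0.39 ± 0.06, adjusted p = 0.000557), as in HPC-7. Complex II had no higher member, and Sdha was at 0.03 ± 0.05.

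Of the MEF calls, 15 of 21 higher and 7 of 11 lower were never lost over 15 settings. Cox7c (0.17) was not called without HSP90i 2 (adjusted p = 0.0669), and Sdhd (-0.20) without Control 3 (0.0637). Uqcrc1 (-0.19) was not called without Control 1 (0.0504) or Control 3 (0.0539), and Ndufs5 (0.19) without Control 2 (0.0582) or HSP90i 1 (0.108). Ndufb9 (0.14) lost its call without Control 2 (0.0634), HSP90i 1 (0.0559) or HSP90i 2 (0.0777). Cox4i1 (0.14) lost it without Control 1 or 2 or HSP90i 1 or 2 (0.0667 to 0.139), Uqcrc2 (0.18) without Control 1 or 2 or HSP90i 2 or 3 (0.0742 to 0.109), and Uqcrh (0.13) without any library but Control 3 (0.0746 to 0.136). Atp5b was not called when the 12 mouse libraries were fitted together (adjusted p = 0.107), and Atp5a1 was called neither in that fit nor with upper quartile factors (highest adjusted p = 0.112). The largest of these differences in size was that of Atp5b, at -0.25.

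The responses of the mouse lines were compared in one model over 12 libraries, as the MEF response minus the HPC-7 response. It was positive for 72 of 78 members and negative for 0 at an adjusted p under 0.05, while 25.4% of the 13720 genes tested were called positive and 17.8% negative. The median difference was 0.86 over the members and 0.11 over all genes. With RLE scaling the medians were 0.74 and -0.01, with 70 positive members and 1 negative, Atp5s. By complex, 35 of 37 members were positive in complex I, 3 of 4 in II, 8 of 9 in III, 10 of 11 in IV and 16 of 17 in V. Each of 65 members was positive in all of 18 other settings.

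The members with the smallest p in this comparison were Ndufa4, Cox6c, Uqcrq and Cox7b. For Ndufa4 the log2 fold change was 0.10 in MEF and -1.38 in HPC-7, and the difference was 1.59 ± 0.10 (SE; adjusted p = 4.5e-08). Here the value of each line comes from its own fit and the difference from the fit over 12 libraries, whose scaling differs, so the difference is not an exact subtraction of the line values. Cox6c and Cox7b, small subunits of complex IV, had 0.04 and -0.01 in MEF against -1.12 and -1.28 in HPC-7, with differences of 1.28 ± 0.08 (adjusted p = 4.8e-08) and 1.38 ± 0.10 (1.2e-07). These genes were not called in MEF and fell in HPC-7, and so did Uqcrq (difference 1.71 ± 0.12, adjusted p = 1.1e-07). The 6 members with no called difference were Ndufa6, Ndufb10, Atp5s, Sdhd, Cox7a2l and Uqcrh. For Ndufa6 the difference was 0.33 ± 0.13 (adjusted p = 0.0507) and for Cox7a2l 0.15 ± 0.11 (adjusted p = 0.298).

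By their own tests, 11 members were lower in both mouse lines, 4 higher in both (Ndufa6, Uqcrh, Cox7a2l and Atp5sl), 14 higher in MEF and lower in HPC-7, and 0 the other way round. In that order these were 14.1%, 5.13%, 17.9% and 0% of the 78 members, against 26.1%, 19.9%, 4.98% and 6.02% of the 10371 genes tested in both lines. The 11 included Cyc1, Cox5a, Atp5g1, Atp5g3, Atp5b and Atp5a1, and of the 14, 10 were in complex I. As given above, some of these calls were lost in MEF, HPC-7 or both when a library was left out. They were those of Uqcrh among the 4, of Sdhd and Uqcrc1 among the 11, and of Cox4i1, Cox7c, Ndufb9, Ndufs3, Ndufs5 and Uqcrc2 among the 14. Over the 77 symbols found in all 3 lines, Pearson's r between the log2 fold changes of MEF and HPC-7 was 0.58, between those of MEF and K562 0.09, and between those of HPC-7 and K562 0.11, as a description with no p, since genes of one library are not independent.

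**Figure D3:**
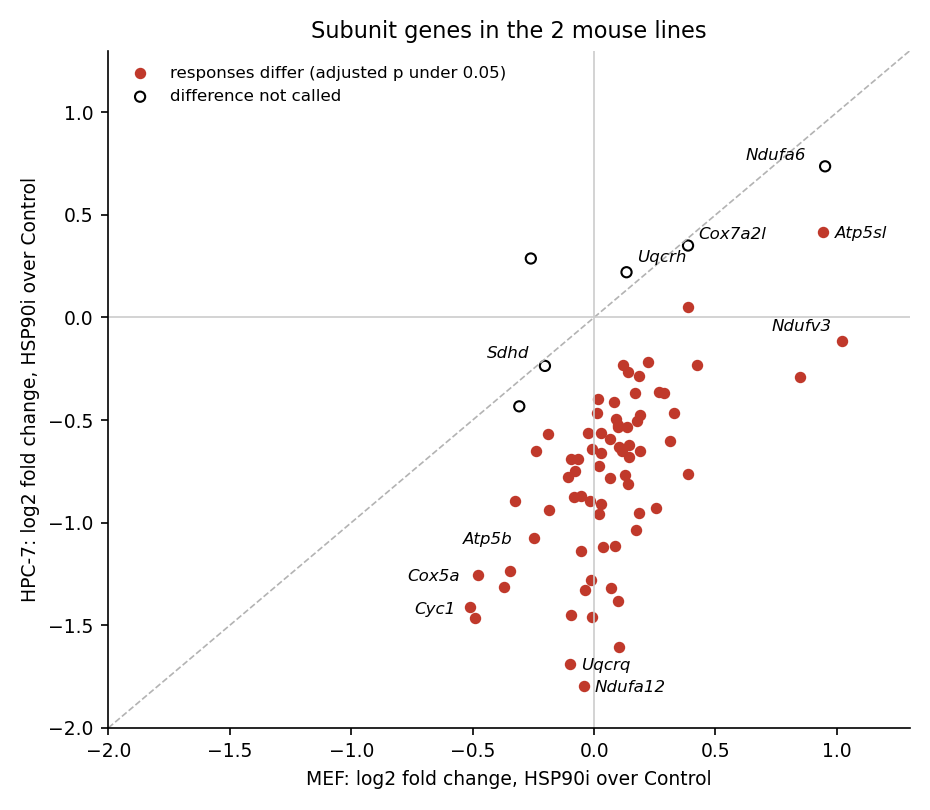
Log2 fold change, HSP90i over Control, of each of the 78 mouse members in MEF (x axis) and HPC-7 (y axis); filled points have a called difference between the lines, and the dashed line marks equal responses. All 72 filled points lie below the dashed line, and Ndufa6, Cox7a2l and Uqcrh lie near it in the upper right.

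In K562 no member was called in either direction, where 5.11% of 13456 genes were higher and 5.97% lower. At an unadjusted p under 0.05 there were 2 members, both higher (NDUFV2 and SDHA), DESeq2 called 0, and limma's voom with sample quality weights called 11, all higher, where it called 20.4% of all genes higher. Control 1 stood apart for these genes. Relative to the mean of the Controls, the median log2 level of the members was -0.07, 0.04 and -0.18 in the HSP90i libraries and 0.48, -0.16 and -0.32 in the Control libraries, and over all genes between -0.02 and 0.02. Control 1 held the highest value for 80.5% of the members, against 33.8% of all genes. With all 6 libraries the median log2 fold change of the members was -0.11 and 24 of 82 were above 0. Without Control 1 it was 0.17, 77 were above 0, and 6 were called higher (SDHA, ATP5SL, NDUFB7, ATP5A1, ATP5F1 and NDUFB11) and 0 lower, where 14% of all genes were called higher.

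**Figure D4:**
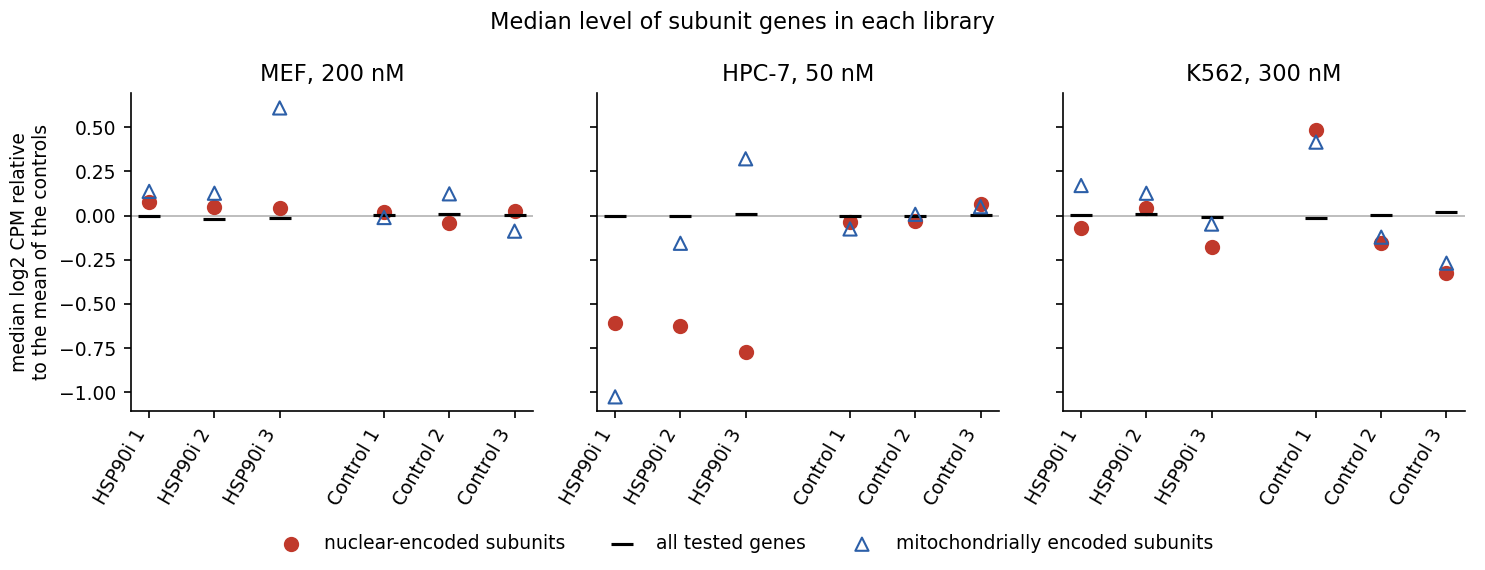
Median log2 CPM, relative to the mean of the Controls, of the nuclear-encoded subunits (circles), all tested genes (dashes) and the mitochondrially encoded subunits (triangles) in each library. The HPC-7 HSP90i circles lie between -0.77 and -0.61, the MEF ones near 0, and K562 Control 1 lies at 0.48, above the other K562 libraries.

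Among single K562 members, SDHA had 234, 231 and 219 CPM in HSP90i libraries, against 211, 168 and 181 CPM in Control libraries (log2 fold change 0.29 ± 0.13, adjusted p = 0.185; without Control 1, 0.39 ± 0.08, adjusted p = 0.0032). All HSP90i values of SDHA were above all Control values, as they were for SDHC, UQCRC2, ATP5B and NDUFV2, 5 members in all against a background of 17.4%; no member had the opposite order, against 17.8%. COX6A1, whose mouse counterpart fell in HPC-7, had 108, 125 and 106 CPM in HSP90i libraries, against 191, 108 and 99.9 CPM in Control libraries (-0.24 ± 0.24, adjusted p = 0.578), and ATP5G1 had 95.8, 100.2 and 82.5 CPM in HSP90i libraries, against 159, 92.6 and 75.2 CPM in Control libraries (-0.23 ± 0.26, adjusted p = 0.613). In both, Control 1 was far above the other 5 libraries, which overlapped. NDUFV2 was at 2.08, 2.80 and 2.45 CPM in HSP90i and 1.18, 1.47 and 1.43 CPM in Control cells. Reads of genes with near-identical copies elsewhere may be split or dropped in counting, so the level of NDUFV2 is uncertain. The 82 K562 members also include NDUFA6-AS1 and NDUFB2-AS1, antisense to subunit genes, and no source used here gives the strand setting of the counting, so reads of the 2 strands cannot be told apart.

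Rows with the members' names but under 1 CPM numbered 8 in MEF, 8 in HPC-7 and 29 in K562, and many of the human ones repeat a symbol with 0 counts. They include the muscle, lung and testis forms of complex IV subunits. Cox6a2, the muscle form of subunit 6a, had 36 counts over the HSP90i and 25 over the Control libraries of MEF, and Cox6b2, the testis form of 6b, 46 and 9. Cox7a1, another muscle form, had 11 and 10 in HPC-7. Cox8b, Cox8c and Cox7b2 had 0 counts in both mouse lines, as did COX4I2, COX6A2 and COX7A1 in K562. NDUFA4L2, a hypoxia-linked relative of NDUFA4, was at 10.1, 10.4 and 10.3 CPM in HSP90i and 17.0, 9.57 and 9.08 CPM in Control cells of K562 and was not called.

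Genes around the enzyme complexes were read from the same fits, in which 35.1% of all genes were called higher and 38.2% lower in MEF, 36.5% and 36.6% in HPC-7, and 5.11% and 5.97% in K562. Of the subunits encoded by mitochondrial DNA, 4 of 11 tested were higher and 0 lower in MEF, 1 higher and 3 lower of 11 in HPC-7, and 0 of 13 were called in K562. The share of higher genes in MEF (36.4%) was near that of all genes, and the shares in HPC-7 (9.09% higher and 27.3% lower) were below those of all genes. In HPC-7, mt-Nd1 and mt-Nd5 fell (-0.80 and -0.79), but their group's median level varied between HSP90i libraries, at -1.03, -0.16 and 0.32 relative to the Controls. The nuclear members were at -0.61, -0.62 and -0.77 in those libraries. In MEF the medians of the mitochondrially encoded group were 0.14, 0.13 and 0.61 in the HSP90i libraries and between -0.09 and 0.12 in the Controls.

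Of 42 assembly factors, 8 were higher and 21 lower in MEF (19% and 50%, beside 35.1% and 38.2% of all genes), and 5 and 23 in HPC-7 (11.9% and 54.8%, beside 36.5% and 36.6%). Their median log2 fold changes were -0.17 and -0.36, against -0.01 and -0.0024 over all genes. Ndufaf4 and Ndufaf2, factors for complex I, fell in both (-1.76 and -1.21 in MEF, -1.44 and -1.40 in HPC-7), and Uqcc2, needed for complex III, fell in HPC-7 (-1.99). Tmem126b, part of the intermediate assembly complex of complex I, rose in both (0.93 and 0.79). In K562, 2 of 46 were higher, TMEM70 (1.14) and ACAD9 (0.68), and 0 lower. ACAD9 was called in the fit without Control 1 and in none of the other 5 that left out a library (adjusted p 0.0580 to 0.136).

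Of the TCA cycle enzymes, which feed the chain with NADH and succinate, 11 of 13 were lower in HPC-7 and 0 higher, against 6 lower and 3 higher of 13 in MEF and 1 lower of 13 in K562. In HPC-7 that is 84.6% lower, where 36.6% of all genes were, while the MEF shares of 46.2% lower and 23.1% higher were nearer to those of all genes (38.2% and 35.1%). Idh3a, the catalytic subunit of the NAD-linked isocitrate dehydrogenase, was lower in all 3 lines, at -1.25 in MEF, -2.13 in HPC-7 and -0.46 in K562 (IDH3A, adjusted p = 0.0446). The K562 call was lost without any library but Control 1, with adjusted p up to 0.207. Idh3b, its partner, was higher in MEF (0.50) and was not called in HPC-7 (0.03). In the coenzyme Q and cytochrome c group, 5 were higher and 7 lower of 16 in MEF, 3 and 9 in HPC-7, and 2 and 1 in K562. The MEF shares, 31.2% and 43.8%, were near those of all genes, and 18.8% higher and 56.2% lower in HPC-7 stood beside 36.5% and 36.6%. Pdss1, which makes the isoprenoid tail of coenzyme Q, was at -2.80, -2.38 and -1.27 (MEF, HPC-7 and K562), and Adck3, now COQ8A, at 3.08, 1.62 and 1.48. Cycs, cytochrome c, was at -1.11 in MEF and -2.49 in HPC-7 and was not called in K562 (0.04).

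Of the transcription regulators, 0 of 12 were higher and 7 lower in MEF, 2 higher and 8 lower of 14 in HPC-7, and 0 higher and 2 lower of 14 in K562. The lower ones made up 58.3% in MEF and 57.1% in HPC-7, beside 38.2% and 36.6% of all genes. Pprc1 fell in each line, by 2.76, 2.50 and 0.90 on the log2 scale in MEF, HPC-7 and K562. Nrf1 was at -1.44 in MEF and -0.25 in HPC-7, with the HPC-7 call lost under a replicate block (adjusted p = 0.0503). Tfam, which packages and transcribes mitochondrial DNA, was at -0.44 and -0.75. Gabpa was not called in either (-0.18 and -0.15), but was without MEF Control 3 (adjusted p = 0.00374) and without HPC-7 HSP90i 2 (0.0386). Of the import and outer membrane genes, 14 of 21 were lower and 2 higher in MEF, 19 and 1 of 21 in HPC-7, and 1 and 0 in K562. The lower ones were 66.7% of the list in MEF and 90.5% in HPC-7, beside the same 38.2% and 36.6%. Timm8a1, a small import chaperone, was at -2.31 in MEF and -2.35 in HPC-7.

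**Figure D5:**
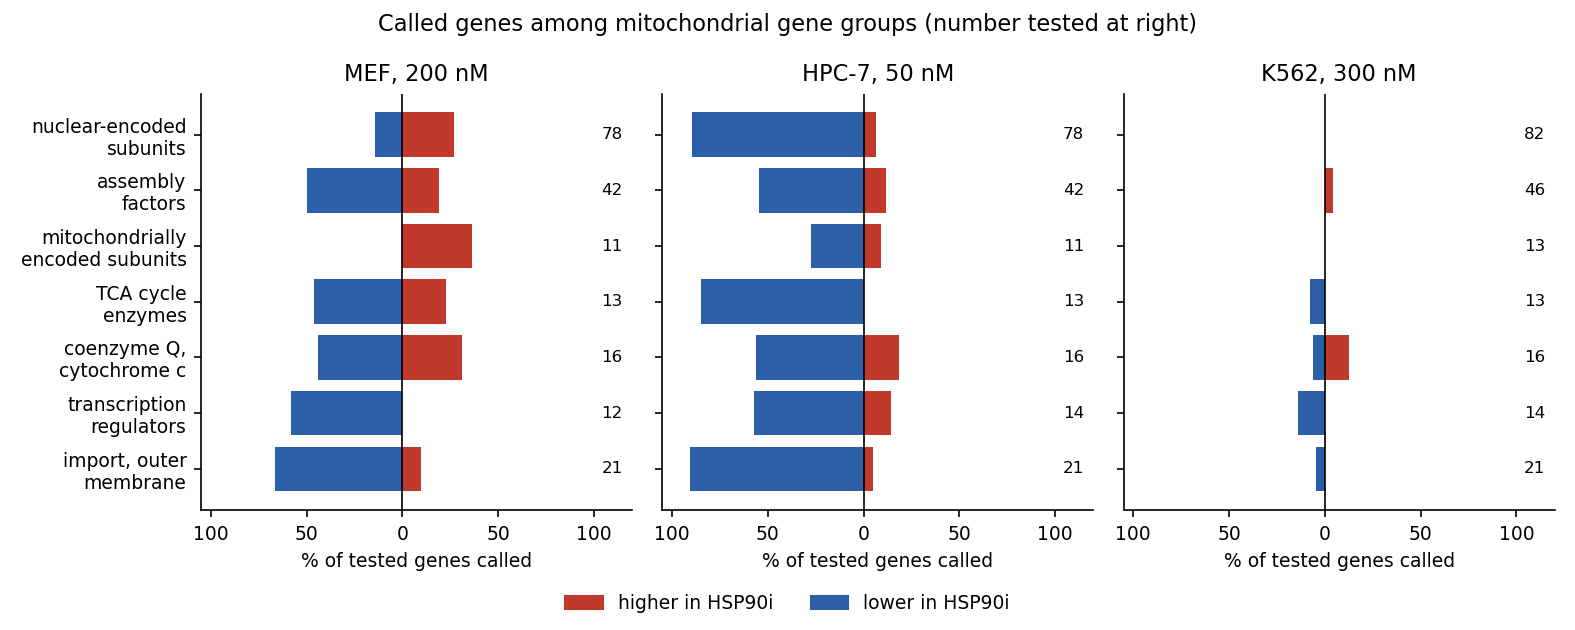
Percentage of tested genes called higher (right) or lower (left) in HSP90i cells, for the nuclear-encoded subunits and 6 groups of mitochondrial genes in MEF, HPC-7 and K562; the number tested stands at the right of each bar. The subunits were lower in HPC-7 (70 of 78) and mixed in MEF (21 higher, 11 lower), and import genes were mostly lower in both mouse lines (14 and 19 of 21).

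Marker genes of cell types moved with treatment too, and their sums are given in CPM. In HPC-7 the 7 blood progenitor markers summed to 5021 to 5393 CPM in HSP90i and 2942 to 3020 CPM in Control libraries, with 5 called higher and 1 lower. The 3 endothelial markers summed to 40.5 to 49.9 CPM in HSP90i and 7.47 to 9.25 CPM in Control libraries (1 of 1 tested higher). The 3 macrophage markers summed to 66.2 to 79.2 CPM in HSP90i and 34.9 to 38.8 CPM in Control libraries (1 of 2 tested higher). The 6 fibroblast markers summed to 270.4 to 308 CPM in HSP90i and 180.2 to 201 CPM in Control libraries (1 of 1 tested higher). Only 1 endothelial and 1 fibroblast marker had a mean of 1 CPM or more, so those sums are mostly single genes. Of the 6 erythroid markers used for K562, 3 were among the HPC-7 rows. These 3 summed to 787 to 921 CPM in HSP90i and 380 to 392.1 CPM in Control libraries. All 3 were called higher, with a median log2 fold change of 2.21. Every one of these sums was higher in the HSP90i libraries, and Krt8, Krt18, Cdh1 and Cdh3, epithelial markers, were at 0.

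In MEF the 6 fibroblast markers summed to 19612 to 20470 CPM in HSP90i and 13498 to 13742 CPM in Control libraries, with 4 called higher and 2 lower. The epithelial markers of MEF summed to 27.1 to 32.4 CPM in HSP90i and 16.1 to 18.9 CPM in Control libraries (3 of 3 tested higher), the macrophage markers to 10.2 to 12.7 CPM in HSP90i and 5.03 to 5.90 CPM in Control libraries (2 of 2), and the blood progenitor markers to 185 to 204 CPM in HSP90i and 188 to 239 CPM in Control libraries. In K562 the 6 erythroid markers summed to 718 to 846 CPM in HSP90i and 780.4 to 1059 CPM in Control libraries, the blood progenitor markers to 566 to 619 CPM in HSP90i and 716 to 1005 CPM in Control libraries (2 of 6 tested lower), and the epithelial markers to 520.1 to 579 CPM in HSP90i and 482 to 765 CPM in Control libraries (0 of 3 called). The fibroblast markers of K562 summed to 10.4 to 11.3 CPM in HSP90i and 6.93 to 7.19 CPM in Control libraries (1 of 1 tested higher). The part of these shifts in the results above was not tested.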

How the data were processed

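RNA-seq of 18 libraries was analysed, 3 HSP90i and 3 Control of each of MEF, HPC-7 and K562. The authors deposited 1 table a line of unnormalized whole-number counts per gene. TopHat2 2.0.13 and featureCounts, and the mouse builds GRCm38 and mm10, stand in the submitters' processing notes with no role. The K562 build and the strand setting are not given in the sources used here, and K562 positions are not reported. The K562 HSP90 ChIP-seq peaks were not used here.

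Samples were grouped by title, and DMSO columns were taken as the Control of the same line and number. Genes were filtered with filterByExpr, scaled with TMM and tested by edgeR 4.0.16 in R 4.3.3 (quasi-likelihood), HSP90i against Control within a line, with Benjamini-Hochberg adjustment over all tested genes and a threshold of 0.05. The difference between mouse lines was tested as an interaction over 12 libraries. Levels are TMM-scaled CPM, and ± after a log2 fold change is its standard error. Biological coefficients of variation were 0.0835 (MEF), 0.0900 (HPC-7) and 0.172 (K562), so K562 differences are known least precisely. The scripts were tested on simulated counts.

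The members and lists were chosen with earlier results of these data known. Genes are named by a rule: up to 2 called members per complex and direction with the largest change, 10 core members, the members with the smallest interaction p, and up to 3 genes per companion list. Others were named after their values were seen. A gene that is not reported here stays in the counts and medians. The labels name no pairing, so the main fits used none. Same-numbered libraries did not deviate together in every pair, but in K562 pairs 1 and 3 correlated above every pair of different numbers. Alternatives were other scalings, filters, DESeq2 1.42.0, limma 3.58.1 with sample weights, a replicate block, a stricter threshold and each library left out.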

Additional observations from a re-analysis of the deposited data

Results flagged for a closer look

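The responses of the subunit genes to HSP90 inhibition differed between the mouse lines, by a test of the difference itself. The MEF response minus the HPC-7 response was above 0 for 72 of 78 members at an adjusted p under 0.05 (edgeR's quasi-likelihood test). Of all 13720 genes tested, 25.4% were called positive and 17.8% negative. The median difference was 0.86 over the members and 0.11 over all genes. Among the members with the smallest p, the log2 difference was 1.59 for Ndufa4, 1.28 for Cox6c, 1.71 for Uqcrq and 1.38 for Cox7b, genes that were not called in MEF and fell in HPC-7. Line and dose (200 nM for MEF, 50 nM for HPC-7) cannot be told apart in this difference.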

How the results depend on the processing

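The median over all members kept its sign under every alternative tried in MEF and HPC-7, and not in K562. HPC-7 lower members numbered 66 to 71 over all settings and the MEF minus HPC-7 difference was positive for 65 to 75. HPC-7 higher members numbered 3 with no filter on low counts, at an adjusted p of 0.01 and without symbols that are no subunit, and 3 to 4 when 1 library was left out. In MEF, members called higher numbered 37 with upper quartile factors and 37 in one fit over 12 mouse libraries, which called 7 lower. All genes shifted too, with 40.8% called higher and 33% lower in the first fit and 37.7% and 29% in the second. The median of all genes was 0.09 in both. The MEF median was 0.17 and 0.18 in these fits, and 0.053 to 0.10 when 1 library was left out (0.10 without Control 3). In K562, members called higher numbered 11 with limma's sample quality weights and 0 to 6 with 1 library left out, with 6 without Control 1. Of all genes, 20.4% were called higher with the weights and 14% without Control 1. The K562 median was 0.10 with the weights and between -0.28 and 0.17 with 1 library left out. The difference was negative for 1 member, Atp5s, with RLE factors and over genes tested in both lines, and for 0 to 1 with 1 library left out. The cause of these shifts was not tested. Of all K562 genes called, 46.1% were higher, against 26.7% without scaling factors and 35.3% with upper quartile factors.

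Same-numbered HSP90i and Control libraries correlated at 0.27, 0.04 and 0.44 in K562, 0.25, -0.21 and -0.23 in MEF and 0.02, 0.03 and -0.08 in HPC-7. Libraries of different numbers correlated at -0.38 to 0.17 in K562, -0.29 to 0.36 in MEF and -0.11 to 0.09 in HPC-7. In K562, pairs 1 and 3 were thus above every pair of different numbers, and pair 2 was not. The labels name no pairing, so the main fits used none and a replicate block was an alternative. With the replicate block, members called higher and lower numbered 20 and 12 in MEF, 3 and 68 in HPC-7 and 0 and 0 in K562, and 73 and 0 for the difference between mouse lines. The shares of all genes with that block were 34.1% and 37.2% in MEF, 34.6% and 34.8% in HPC-7 and 6.48% and 6.97% in K562.

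With 3 libraries a group, K562 had a median standard error of 0.22 per member (log2), against 0.06 in MEF and 0.08 in HPC-7. K562 differences are therefore known less precisely. Cox6a2, Cox6b2 and the other forms under 1 CPM were not tested.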
